A study of Mus musculus with 24 samples.

Results

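Mouse blastocyst pools of the condition coded HC2 were compared with those of the condition coded HC6. The pools were taken by the code in their titles, which gave 4 HC2 pools and 4 HC6 pools among the 24 pools of 6 conditions, HC1 to HC6. The series title names bisphenol A, an environmental estrogen, and the activation of membrane estrogen receptors in the embryo before implantation, but the labels do not say which agent, dose or control stands behind HC2 or HC6. All pools were made of expanded blastocysts that had been frozen, while strain and hours in culture are not stated in the labels. An HC2 pool held 15 embryos and an HC6 pool held 20, so the number of embryos and the condition cannot be told apart. From every pool 2 ng of total RNA was labelled for its own one-colour Agilent array. Whether the 4 pools of a condition came from separate cultures or litters is not stated, and the tests measure the spread between these pools.

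The expanded blastocyst holds an outer trophectoderm, which pumps fluid into the cavity and attaches the embryo to the uterus, and an inner cell mass that parts into epiblast and primitive endoderm. Estrogens act through the nuclear receptors ESR1 and ESR2 and, within minutes, through receptors at the membrane such as GPER1, which signal by cyclic AMP, calcium and ERK kinases. Small nucleolar RNAs, one of which had the smallest p here, are short RNAs cut from introns that guide the chemical modification of ribosomal RNA, those of the H/ACA class (named Snora) guiding pseudouridylation. Because a pool is a bulk sample, fewer cells of a type and less RNA per cell cannot be told apart in any value below.

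Probe sequences are shown for 4 of the 5 RNAs of this kind with an unadjusted p under 0.05, among them Snora78, the only gene called under a block for array position. Each is 60 bases long, written 5′ to 3′ as deposited in the scanner files, with mm9 coordinates of the array annotation. Capitals mark matches to ANANNA, the letters of the H box of this RNA class. Snora78 lies at chr17:24856697-24856756 on the minus strand, Snora73a at chr4:131908690-131908749 on the minus strand, Snora52 at chr7:148634747-148634806 on the plus strand and Snora47 at chr13:96100607-96100666 on the plus strand.
Snora78: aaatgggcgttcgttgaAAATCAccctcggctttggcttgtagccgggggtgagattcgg
Snora73a: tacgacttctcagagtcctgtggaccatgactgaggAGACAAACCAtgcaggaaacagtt
Snora52: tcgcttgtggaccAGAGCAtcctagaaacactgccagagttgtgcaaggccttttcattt
Snora47: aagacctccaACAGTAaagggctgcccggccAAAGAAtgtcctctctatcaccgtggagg
The motif is loose: 70.6% of all 56605 probes hold it on the strand as written and 92.9% on either strand, and in Snora73a 2 matches overlap.

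The 24 arrays lay on 3 slides with 8 positions each, in 2 rows. Between 38.6% and 49.7% of the spots were well above background on the 8 arrays compared, no spot was saturated, and the 75th percentile of the signal lay between 96.1 and 176. More features were called between the rows of the slides than between HC2 and HC6. The row test sets more arrays against each other, so the 2 counts do not compare sizes. With condition in the model, limma called 1992 of 18448 features (10.8%) between the rows, 560 higher and 1432 lower in row 2, at a Benjamini-Hochberg adjusted p under 0.05. The first principal component, with 19.1% of the variance, was positive on all 9 arrays at row 2, columns 2 to 4, and negative on the other 15 arrays. That split had 5086 features called (27.6%). It was chosen after seeing the component of these same arrays, so the count is not an independent measure of place. The same holds for every p-value given below for a gene between these places and the others. Of the HC2 arrays, replicates 2 and 3 lay at those places, and of the HC6 arrays only replicate 1. Neither slide nor column had any feature called, with 1063 and 672 features at an unadjusted p under 0.05.

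**Figure D1:**
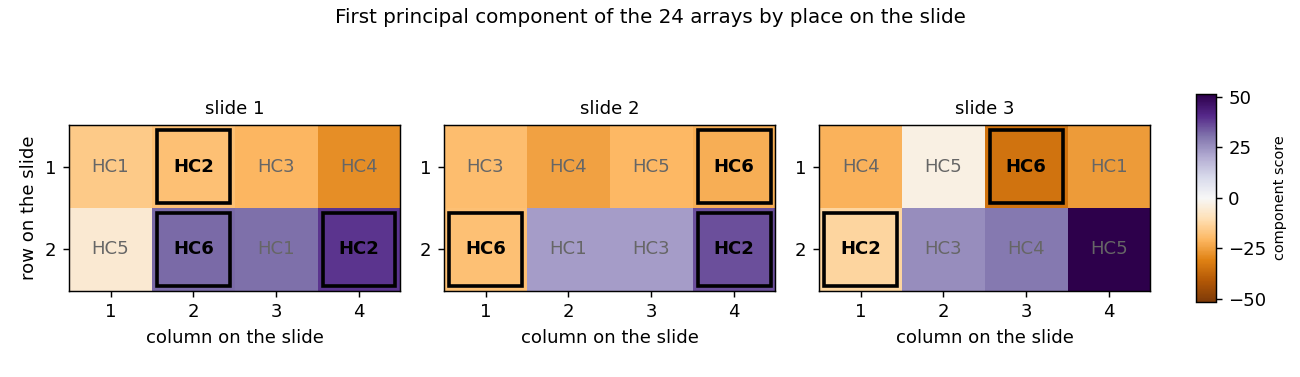
Score of each array on the first principal component over all features tested (colour), drawn at the row and column the array had on each of the 3 slides, with the condition code in the cell and HC2 and HC6 arrays framed. The 9 arrays at row 2, columns 2 to 4, are positive on all slides, among them 2 HC2 arrays and 1 HC6 array.

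HC2 and HC6 blastocysts had closely alike profiles, and no gene was called between them. Of 18448 features tested with limma, 0 had an adjusted p under 0.05 (0%), and the smallest adjusted p was 0.33, for Snora78. At an unadjusted p under 0.05 there were 512 features (2.78%), of which 244 were higher (1.32%) and 268 lower (1.45%) in HC2, where 922.4 would come from a uniform spread of p-values. The groups did not overlap for 275 of 18316 features with a value in all 8 pools (1.5%), with HC2 above HC6 for 103 (0.562%) and below for 172 (0.939%). When arrays were scaled on the 75th percentile of probes detected on all arrays, that split was 137 above and 144 below. Profiles of different HC2 pools correlated with r across features of 0.97 to 0.982, and those of HC6 pools with 0.965 to 0.983. An HC2 with an HC6 pool correlated with 0.965 to 0.985, a range no lower than those within a condition. The correlation also went with array place, in the classes split by the first principal component. Pairs in the same class of place had r of 0.974 to 0.985, and pairs across classes 0.965 to 0.977. Place was not held equal between these sets of pairs, so the ranges do not separate condition from place. Features are not independent replicates, and these correlations describe the pools.

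The precision bounds what could have been missed. The median standard error of a difference was 0.19 on the log2 scale, and for 14348 features (77.8%) the 95% interval excluded a change of 2-fold in either direction. Among 13759 features well above background on all 8 arrays, 14 (0.102%) differed by more than 2-fold between the means, against 339 (1.84%) among all features tested. The median difference over all features was -0.02.

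Position was entered as a block in several ways. With the row as a block, limma called 1 feature (0.00542%), Snora78, with an adjusted p of 0.0342. With slide and row together that call was lost (0 called, adjusted p 0.122 for Snora78), and the slide alone, as a fixed or random block, gave 0 calls as well. With the place at row 2, columns 2 to 4, as a block, 0 features were called, the smallest adjusted p was 0.138, and 570 features had an unadjusted p under 0.05, of which 429 also had it without the block. The row block turned the sign of 1707 of the 18448 differences, and the place block that of 2099.

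Snora78, an H/ACA small nucleolar RNA, had the smallest p of all features. Its values, as log2 intensity minus the array's 75th percentile, were -1.02, -0.57, -0.85 and -0.34 in HC2 replicates 1 to 4 and -1.45, -2.26, -2.01 and -2.29 in HC6 replicates 1 to 4. Every HC2 pool lay above every HC6 pool. The means of -0.69 ± 0.30 and -2.00 ± 0.39 (SD, n = 4 each) differed by 1.31 (95% interval 0.82 to 1.80), a 2.48-fold difference, with an adjusted p of 0.33. On slides 1, 2 and 3 taken alone the difference was 0.66, 1.29 and 1.95. It was 1.51 among the arrays outside row 2, columns 2 to 4, and 0.74 among those at these places, and 1.20 and 1.22 with the row and the place as block. The RNA itself was 0.36 higher at row 2, columns 2 to 4, than elsewhere (limma adjusted p 0.0327), less than the gap between the conditions. The other 16 pools ranged from -2.15 to -0.44 with a median of -1.45, and HC6 replicates 2 and 4 lay below that range. The size depended on the background correction: it was 0.5818 for Snora78 with normexp correction and quantile normalization and 0.7047 in the authors' deposited table.

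All 12 small nucleolar and small Cajal body RNAs that were tested were higher in HC2, by 0.04 to 1.31, a grouping by name made after the values were seen. Their median difference was 0.33, against -0.02 over all features, and 5 of 12 had an unadjusted p under 0.05 with HC2 higher, against 1.32% of all features. Snora74a read -0.61, -0.72, -0.97 and -0.62 in the HC2 pools and -1.21, -1.56, -1.34 and -1.32 in the HC6 pools, again without overlap. Its difference was 0.63 (0.29 to 0.96), and each HC6 pool lay below the lowest of the other 16 pools, which was at -1.15. Snora73a, a U17 RNA needed for the cutting of the ribosomal RNA precursor, read 5.22, 4.91, 4.75 and 4.87 in HC2 and 4.78, 4.06, 4.41 and 4.12 in HC6. Only HC6 replicate 1 reached into the HC2 range, and the difference was 0.59 (0.17 to 1.02).

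Snora52 was at -1.28, -1.30, -1.48 and -1.79 in the HC2 pools and at -1.73, -2.55, -1.53 and -2.94 in the HC6 pools. HC6 replicates 2 and 4 lay below all HC2 pools and the other two did not, with a mean difference of 0.73. Snora47 was well above background in 3 HC2 pools and 0 HC6 pools, with means of -2.35 and -3.23, which gives at least a 1.51-fold difference, with each HC6 array set to its own signal or to the dimmest detected probe of that array, whichever was higher. The remaining 7 differed by 0.04 to 0.37. Snord33 and Snord17, box C/D RNAs that guide methylation of ribosomal RNA, differed by 0.28 and 0.14, and Scarna13 by 0.10. None of these 7 was without overlap.

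In the RefSeq gene table (GRCm38.p6, strand not given) each of the 12 lies within the span of at least 1 tested gene. The 13 tested holding genes differed between -0.37 and 0.14, 10 of them lower in HC2, and 0 had an unadjusted p under 0.05. Snora78 lies within both Rps2, a ribosomal protein gene, and the noncoding Snhg9. Rps2 had means of 6.94 in HC2 and 6.95 in HC6, a difference of -0.01 (-0.21 to 0.20), and Snhg9 differed by 0.12 (-0.29 to 0.53). Both intervals lie below the Snora78 interval of 0.82 to 1.80, although the difference between the RNA and its holding gene was not itself tested. Snhg3, which holds Snora73a, differed by -0.04 (-0.31 to 0.23), Rplp2, which holds Snora52, by -0.06 (-0.34 to 0.21) and Snhg4, which holds Snora74a, by -0.06 (-0.45 to 0.33). Of the 13 tested members of the list of small nucleolar RNAs and host transcripts, 7 RNAs were higher in HC2 and 6 host transcripts lower, 4 of the 7 with an unadjusted p under 0.05.

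**Figure D2:**
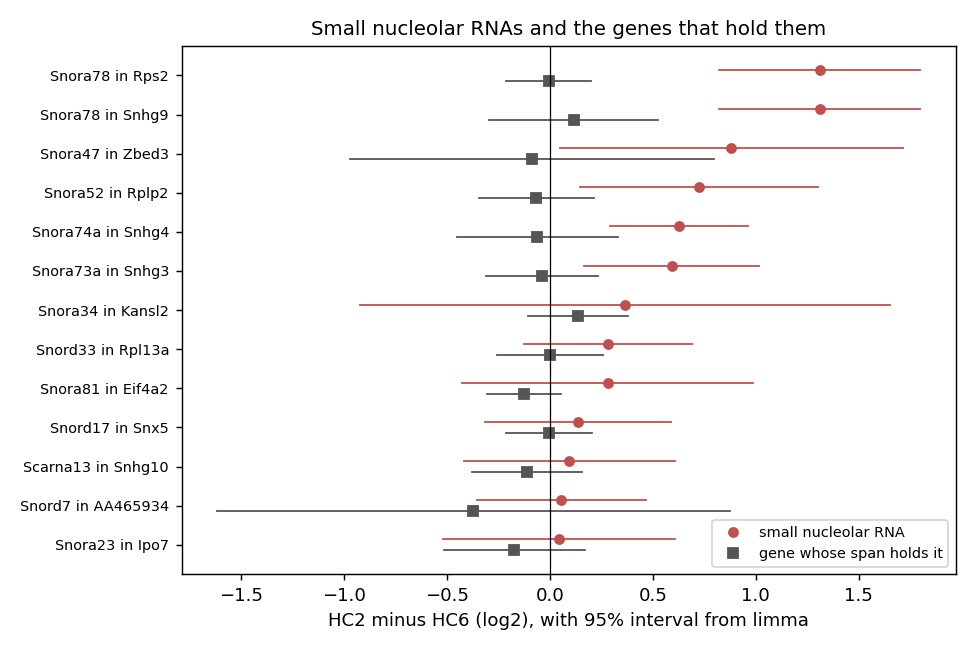
Difference of HC2 minus HC6 on the log2 scale for 12 small nucleolar or small Cajal body RNAs (circles) and for the genes whose span holds them (squares), with 95% intervals from limma. Snora78 is drawn once for each of its holding genes, and the RNAs all lie right of 0, from 0.04 to 1.31, while the holding genes lie between -0.37 and 0.14.

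The other genes at the top of the list, in either direction, came from many functions. By the rule for named genes, the 12 genes with the smallest p in each direction were taken among those well above background on at least 4 of the 8 arrays, and 16 of these 24 did not overlap between the conditions. A gene could pass this filter through the condition where it was brighter alone. Of the 24, 14 were well above background in all 8 pools. Having been chosen for small p-values, the 24 genes had to differ, and 1.5% of all features did not overlap. Their difference had the same sign within all 3 slides for 23 of 24 and within both classes of place for 24 of 24. Without overlap the sign in any slide or class is fixed, so for 16 of the 24 this could not come out otherwise. No such share was taken over all features. With the place as a block the differences of the 24 kept between 85.8% and 106% of their size. Adjusted p-values were 0.33 to 1.00, so none of the 24 differences passed the test. Dim probes gave smaller sizes in the authors' deposited table, among them Ring1 (0.3694) and Rara (0.3667), against 1.11 and 0.78 here.

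Among genes higher in HC2, Ring1, a ubiquitin ligase subunit of Polycomb repressive complex 1, read -2.29, -2.04, -1.95 and -1.81 in the HC2 pools and -3.27, -2.58, -3.52 and -3.18 in the HC6 pools. The groups stood apart, and the difference was 1.11 (0.63 to 1.60, limma adjusted p 0.459), with HC2 higher within each of the 3 slides. The signal was well above background in 4 HC2 pools but in only 1 HC6 pool.

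Rara, the retinoic acid receptor alpha, was well above background in all 8 pools. It read -1.08, -1.05, -1.33 and -0.75 in HC2 and -1.90, -1.77, -1.62 and -2.03 in HC6. Again no HC6 pool reached an HC2 pool. The difference of 0.78 (0.43 to 1.13, limma adjusted p 0.481) was 0.83, 0.37 and 1.29 within slides 1, 2 and 3. A second kept probe of Rara, dimmer and well above background in 2 pools of each condition, differed by 0.08, so the 2 probes did not show a like difference. The other 16 pools lay between -1.81 and -1.05 for the brighter probe, between the means of HC2 (-1.05) and HC6 (-1.83).

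Fam131a differed by 1.47 (0.82 to 2.11) and Foxa3, a forkhead transcription factor of endoderm and liver, by 1.13 (0.56 to 1.69). Each was well above background in 3 HC2 pools and 1 HC6 pool, and for Fam131a no HC6 pool reached the lowest HC2 pool. For Foxa3 the lowest HC2 pool and the highest HC6 pool met, both at -3.13, and the gene counts among the 16 by less than the digits printed. For Foxa3 the median of the other 16 pools was -2.59, at the HC2 mean of -2.59, with HC6 at -3.72. Cd6, a surface glycoprotein of lymphocytes, was well above background in all 4 HC2 pools and in 0 HC6 pools, with means of -2.41 and -3.52 and so at least a 1.47-fold difference (limma adjusted p 1.00).

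Prp2, Caly, Smim24, Ankrd52 and Dpp4 completed the group. They differed by 0.84, 0.76, 1.14, 0.94 and 0.66. Of these only Caly, a protein of neuronal vesicles, did not overlap. Prp2 was 0.48 higher at row 2, columns 2 to 4, over all arrays (limma adjusted p 0.00234) and differed by 0.72 between conditions with the place as a block. Dpp4, a dipeptidyl peptidase of the cell surface, was the exception among the 24 to a shared sign within slides. It was 1.02 and 0.86 higher in HC2 in slides 1 and 2 and differed by -0.36 in slide 3.

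Among genes lower in HC2, Scube3, which encodes a secreted and membrane-bound glycoprotein with EGF-like repeats, had the smallest p. It read -4.61, -4.47, -4.77 and -4.59 in the HC2 pools, none well above background, and -1.87, -2.75, -2.06 and -2.69 in the HC6 pools, all well above background. The means of -4.61 ± 0.12 and -2.34 ± 0.44 (SD, n = 4 each) give HC2 at least 1.71-fold lower (limma adjusted p 0.705). The other 16 pools spanned -5.33 to -2.49, so that dim and bright pools also occurred outside these conditions, and HC6 replicates 1 and 3 were above all of them.

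Clu encodes clusterin, a secreted chaperone. Its values were 0.04, -1.06, -1.15 and -0.53 in HC2 and 0.55, 2.02, 2.14 and 0.39 in HC6. HC6 replicates 2 and 3 lay well above the rest, and the groups did not overlap. The difference was -1.95 (-3.18 to -0.72), an adjusted p of 1.00 from limma, and the other 16 pools had a median of 0.37 and a range of -1.85 to 1.45, wider than the gap between the means of HC2 (-0.67) and HC6 (1.28).

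Akain1, an inhibitor of A-kinase anchoring, read -1.36, -1.76, -1.22 and -1.55 in HC2 against -0.79, -0.42, -0.90 and -0.59 in HC6. The groups did not overlap, with a difference of -0.80 (-1.23 to -0.36). Wdr13, an X-linked gene for a WD repeat protein, had the smallest spread of the 24. Its HC2 pools read 0.07, 0.06, 0.14 and 0.09 and its HC6 pools 0.35, 0.40, 0.43 and 0.41. The difference of -0.30 (-0.52 to -0.09) was -0.28, -0.27 and -0.31 within the 3 slides, but the other 16 pools ranged from -0.02 to 0.52, across both groups.

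Pfkfb4, an enzyme that sets the rate of glycolysis, differed by -0.83 (-1.34 to -0.31) with pools that overlapped. HC6 replicate 1, at row 2, columns 2 to 4, read -1.67, while the other HC6 pools read -0.68, -0.56 and -1.15. Over all arrays these places differed from the others by -0.41 (limma adjusted p 0.0161), and the difference with the place as a block was -0.72. Gt(ROSA)26Sor, the noncoding transcript of the ROSA26 locus, followed the same line: it differed by -0.51 between conditions, by -0.26 between these places and the others (limma adjusted p 0.0187), and by -0.45 between conditions with the block. Ankrd12 differed by -0.84 and -0.76 with the block, Catsper2 by -0.39 and -0.35, and Dmxl1 by -0.67 and -0.61. A dimmer second probe of Dmxl1 was well above background in 1 HC2 and 0 HC6 pools, and the mean of both probes of Dmxl1 differed by 0.3127. Pex3 encodes a protein that builds the peroxisome membrane. Its dimmer second probe, well above background in 3 HC2 pools and 1 HC6 pool, differed by 0.45, and the mean of both by 0.02346. The brightest probe of Pex3 differed by -0.41, Nat8f1 by -0.57, and Tapt1 by -1.15, where HC6 replicate 1 alone, at -0.23, stood far above the other HC6 pools at -2.46 to -2.22.

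**Figure D3:**
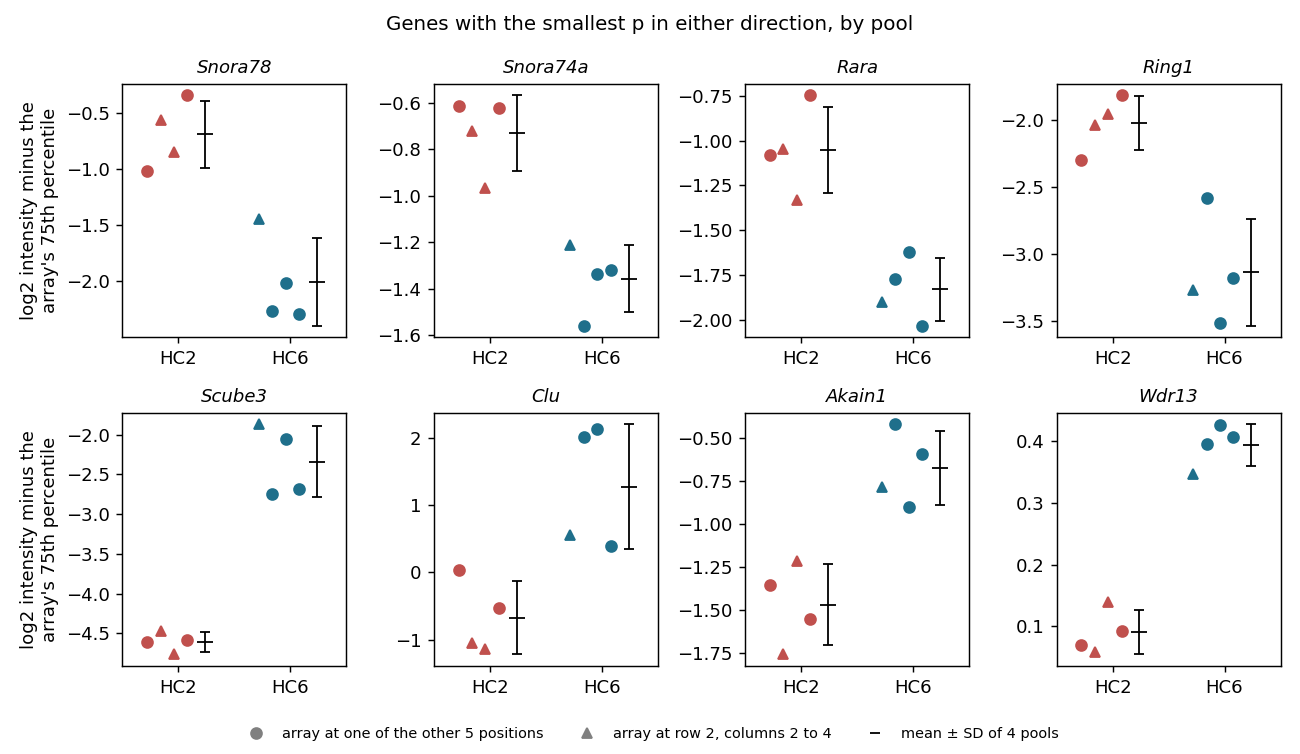
Values of 8 genes from the ends of the p-value order in the 4 HC2 and 4 HC6 pools, as log2 intensity minus the array's 75th percentile, with the mean and SD of each condition beside them and triangles for arrays at row 2, columns 2 to 4. In each of these 8 genes the conditions do not overlap, and HC6 replicate 1, the HC6 triangle, is the highest HC6 pool for Snora78, Snora74a and Scube3 and the lowest for Wdr13.

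The largest differences among genes well above background in all 4 pools of a condition were mostly carried by 1 or 2 pools. Ctsll3, a cathepsin L-like protease, differed by 1.62 (-0.36 to 3.61), with HC2 pools at 2.63, 1.94, -1.16 and 3.35 and HC6 pools at 1.17, -1.53, -0.89 and 1.52. High and low pools occurred in both conditions. Slc36a1, an amino acid transporter, differed by 1.60 through HC2 replicate 3 at 1.71, while the other HC2 pools were at -3.14 to -1.78. Tmem199 differed by 1.57 through HC2 replicates 2 and 3, at 3.45 and 2.59, the 2 HC2 arrays at row 2, columns 2 to 4, where this gene was 1.12 higher over all arrays (limma adjusted p 0.0186). HC6 replicate 1, at these places too, read 0.69, the highest HC6 pool.

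Ubqln4, a shuttle factor of the proteasome, differed by 1.43 through HC2 replicates 2 and 4, and by 0.26 in a second probe. Fgf18, a growth factor ligand, differed by 1.36 over 7 pools, HC2 replicate 2 having no value. On the other side, Phtf1os was well above background in no HC2 pool and all HC6 pools, with a measured mean 2.83-fold lower in HC2. HC6 replicate 1 alone, at 1.52, carried this difference, the other HC6 pools being at -2.73 to -2.20. The measured difference without that pool was -0.51. Zfp629 differed by -1.18 and Asphd2 by -1.17, each with overlapping pools. For Asphd2, HC6 replicate 1 was highest, at 1.69, and the gene was 1.43 higher at row 2, columns 2 to 4 (limma adjusted p 0.0117). With the place as a block its difference was -1.52. Nsg2, an endosomal protein of neurons that was picked after its values were seen, was at 1.26 and 0.03 in HC2 replicates 3 and 4, at -4.88 and -4.01 in the other HC2 pools and at -5.84 to -4.31 in HC6. It was at least 2.12-fold higher in HC2, well above background in 2 of 4 pools and in 0 of 4 HC6 pools.

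Across the gene lists, the share of genes with a small p was that of the array. Of 710 list genes tested, 19 (2.68%) had an unadjusted p under 0.05, 11 with HC2 higher and 8 lower, against 2.78% of all features, and 0 were called. Below, a small p means an unadjusted p under 0.05. List medians ran from -0.28 to 0.14, with 14 of 32 lists above 0. Without HC6 replicate 3, 11 of the 32 medians had the other sign.

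No lineage marker parted the conditions. The 8 defining genes named here were well above background in every pool. Cdx2, the master factor of the trophectoderm, had means of 4.83 ± 0.11 in HC2 and 4.78 ± 0.31 in HC6, a difference of 0.05 (-0.38 to 0.47). Gata3 and Krt8 differed by -0.08 (-0.42 to 0.26) and 0.03 (-0.23 to 0.29), and all of these intervals exclude a 2-fold change. Of 26 tested trophectoderm genes 19 were higher in HC2, with a median of 0.08, and 0 had a small p. This balance rested on HC6 replicate 3, whose mean deviation over the list, -0.35, was the lowest of the 24 pools. Without it the list median was -0.05.

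Pou5f1, Nanog and Sox2, the core factors of pluripotency, differed by -0.02 (-0.41 to 0.37), -0.16 (-0.63 to 0.32) and -0.16 (-0.55 to 0.24). The list of 27 epiblast and pluripotency genes had a median of -0.06 with 10 higher, and its smallest p was that of Spp1, the secreted integrin ligand osteopontin, at -0.21 (-0.44 to 0.02). In the primitive endoderm list, 14 of 24 genes were higher, with a median of 0.05. Gata6 and Sox17, which specify this lineage, differed by -0.13 (-0.38 to 0.12) and 0.14 (-0.19 to 0.47). Fgfr1, the receptor of the FGF4 signal that sorts epiblast from primitive endoderm, was the single member with an unadjusted p under 0.05: it read 4.35, 4.19, 4.07 and 4.02 in HC2 and 4.59, 4.33, 4.33 and 4.44 in HC6. All but 1 HC2 pool lay below the HC6 pools, and the difference was -0.27 (-0.49 to -0.04, limma adjusted p 1.00).

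Of the estrogen receptors, only Esr2 gave a signal. Its brightest probe was well above background on all 24 arrays and read 2.08, 1.84, 2.10 and 1.83 in HC2 and 2.06, 1.97, 2.00 and 2.23 in HC6. The pools were intermixed, with a difference of -0.10 (-0.33 to 0.13). A second Esr2 probe was well above background on 0 of the 8 arrays. Esr1 had 7 probes, of which 6 were well above background on 0 and the last on 1 of the 8 arrays, and the Gper1 probe on 0, so the arrays hold no measure of these receptors. The 19 tested receptors and coregulators had a median of -0.01 and 0 members with a small p. Ncoa3, a coactivator of nuclear receptors, differed by -0.21 (-0.48 to 0.06), Med1, the Mediator subunit that binds them, by -0.17 (-0.49 to 0.15), and Nrip1, a corepressor, by 0.21 (-0.18 to 0.61), or by -0.0061 with the mean of its kept probes.

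Classical estrogen targets had the highest list median, 0.14, with 8 of 15 tested genes higher in HC2. Rara, described above, was the 1 member with a small p. Ihh, a hedgehog ligand of the uterus and endoderm, was well above background in 1 HC2 pool and 0 HC6 pools, with means of -2.85 and -3.93 and so at least a 1.097-fold difference (limma adjusted p 1.00). The list's median was 0.11 with the place as a block and 0.02 without HC6 replicate 3. Among RefSeq promoters (GRCm38.p6, bases just around the start), 21 promoters of 17 of the 24 genes with the smallest p could be matched. The palindromic estrogen response element, AGGTCA and TGACCT parted by any 3 bases, was in 0 of the 21 and in 0.0213% of all 32851 promoters. An element this rare would hardly be met among 21 promoters, so the count of 0 tells nothing about these genes. A single AGGTCA, on either strand, was in 1 of the 21, a promoter of Rara, and in 16.3% of all promoters.

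No signalling gene that a membrane receptor would reach had a small p. Kinases and transducers had 17 of 27 members higher in HC2 and a median of 0.06. Adcy9, an adenylyl cyclase, differed by 0.33 (-0.03 to 0.69), the kinase Src by 0.45 (-0.09 to 0.99) and Mapk3, the ERK1 kinase, by 0.21 (-0.12 to 0.54). The lowest difference, of Pik3ca, a catalytic subunit of PI3 kinase named after its value was seen, was -0.72 (-1.99 to 0.55). The highest difference in the list was larger, at 1.47. Of 24 immediate early and ERK feedback genes 19 were lower in HC2, with a median of -0.10, and 0 had a small p. Dusp4, a phosphatase that switches ERK off, read 2.23, 1.67, 2.03 and 2.04 in HC2 and 2.31, 2.31, 2.51 and 2.24 in HC6. The groups just failed to overlap, with a difference of -0.35 (-0.77 to 0.07), and Dusp5 and Spry2, other feedback genes, differed by -0.50 and -0.22, Spry2 by 0.04418 with the mean of its kept probes. The list median was -0.09 with the place as a block and -0.08 without HC6 replicate 3.

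In 4 of 32 lists the 3 pools at row 2, columns 2 to 4, had the 3 lowest mean deviations of the 8: heat shock chaperones, cholesterol synthesis, fatty acid genes and estrogen receptors with coregulators. Heat shock chaperones were lower in HC2 for 19 of 22 genes, with a median of -0.07. Their mean deviation from the 24-array mean was 0.11, -0.28, -0.37 and 0.03 in HC2 replicates 1 to 4 and -0.39, 0.21, 0.23 and 0.17 in HC6 replicates 1 to 4. The 3 pools at row 2, columns 2 to 4, were the 3 lowest of the 8. With the place as a block the list median was -0.03. Hspa1b, a stress-induced HSP70, differed by -0.67 (-1.59 to 0.25) and by -0.48 with the block. Between these places and the others it differed by -0.78 (limma adjusted p 0.00961).

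Cholesterol synthesis, the pathway from acetyl-CoA to sterols, was lower in HC2 for 19 of 23 genes, with a median of -0.13 and 0 members with a small p. Its mean deviation was 0.14, -0.21, -0.16 and -0.07 in HC2 and -0.22, 0.18, 0.15 and -0.0012 in HC6. Again the 3 pools at row 2, columns 2 to 4, were the lowest, and with the place as a block the median was -0.07. Lss, which closes the sterol rings, differed by -0.26 (-0.58 to 0.07), and the kinases Pmvk and Mvk by -0.17 each, with -0.14 and -0.11 with the block. In slide 1, HC6 replicate 1 and 1 of the 2 HC2 pools lie at these places. Lss, Pmvk and Mvk were 0.11, 0.07 and 0.21 higher in HC2 in that slide. In slide 2, where HC2 replicate 3 lies at these places, they differed by -0.33, -0.33 and -0.53. In slide 3, with neither an HC2 nor an HC6 array at these places, they differed by -0.43, -0.11 and -0.18.

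**Figure D4:**
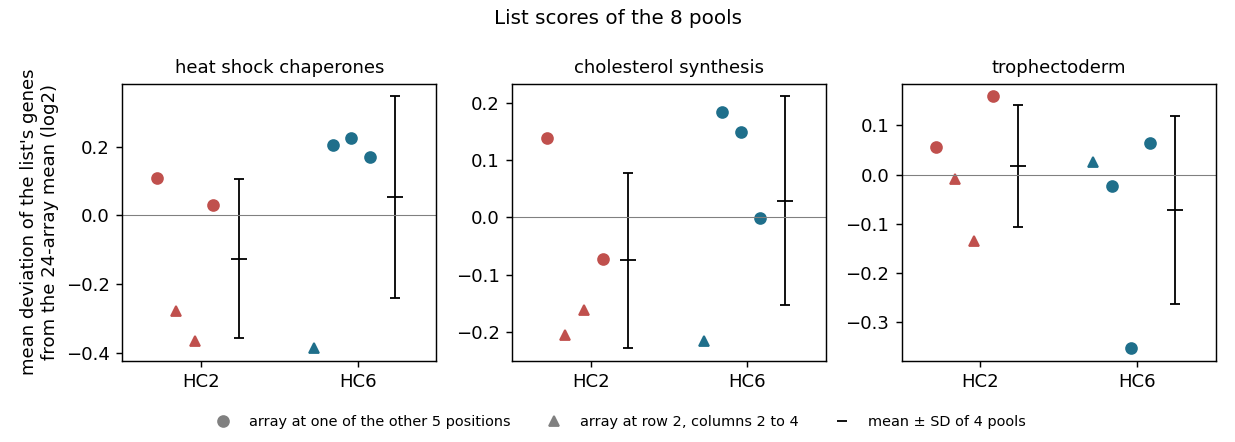
Mean deviation from the 24-array mean over the tested genes of 3 lists in the 4 HC2 and 4 HC6 pools, with mean and SD, and triangles for arrays at row 2, columns 2 to 4. For heat shock chaperones and cholesterol synthesis the 3 triangles are the lowest pools in both conditions; for trophectoderm genes HC6 replicate 3, at -0.35, is the lowest.

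In metabolism, 20 of 32 genes of amino acid and polyamine metabolism were higher in HC2, with a median of 0.05. Srm, which makes spermidine, differed by 0.34, and Sms, which makes spermine from it, by -0.21 (-0.43 to 0.01). Glycolysis and glucose transport had a median of 0.03. Slc16a3, a lactate exporter, was its 1 member with a small p and differed by 0.63 (0.01 to 1.25). Fatty acid genes had a median of -0.06, and of -0.011 with the place as a block, with Fads1, a desaturase, at -0.76 (-1.47 to -0.05), well above background in 1 HC2 and 3 HC6 pools. Oxidative phosphorylation was lower for 23 of 32 genes and ribosomal proteins for 35 of 49, both by medians of -0.03, close to the -0.02 of all features. With the place as a block these medians were -0.0031 and -0.013.

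Among regulators of the genome and cell cycle, 3 of 22 genes of DNA methylation and demethylation had a small p, against 2.78% of all features. Many lists were looked at, and this count was not tested. Tet3, a dioxygenase that oxidises methylcytosine, differed by 0.68 (0.03 to 1.33) and Gadd45b by 0.36 (0.02 to 0.69), whereas the DNA glycosylase Smug1 differed by -0.30 (-0.58 to -0.02) by its brightest probe and by 0.04103 by the mean of its kept probes. Pools overlapped in all of them. Of imprinted genes 15 of 28 were higher. Cdkn1c, a maternally expressed inhibitor of the cell cycle, differed by -0.76 (-1.46 to -0.05) and its HC6 replicate 4, at 2.17, was far above the others, at 0.45 to 0.92. Impact, a paternally expressed gene, was without overlap at -0.22 (-0.44 to 0.01). Cell cycle genes were lower for 24 of 36, with a median of -0.06. Ccnb1, the mitotic cyclin, read 4.23, 4.09, 4.00 and 4.46 in HC2 and 4.34, 4.43, 4.49 and 4.51 in HC6. The HC2 pools were lower apart from replicate 4, and the difference was -0.25 (-0.49 to -0.01). Rrm2, a subunit of ribonucleotide reductase, differed by -0.21 (-0.41 to -0.01) and by -0.16 with the place as a block.

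Stress and death genes differed in both directions. Of 32 p53 targets and apoptosis genes 16 were higher. Eda2r, a death receptor induced by p53, differed by 0.61 (0.18 to 1.04) and Pmaip1, the BH3-only protein NOXA, by -0.51 (-0.99 to -0.03). Cdkn1a, the p21 inhibitor, differed by 0.27 (-0.09 to 0.63). In the unfolded protein and amino acid response 18 of 32 were higher. Vldlr, a lipoprotein receptor in that list, read -1.31, -1.42, -1.75 and -1.19 in HC2 and -1.07, -1.02, -1.14 and -0.53 in HC6. The groups did not overlap, with a difference of -0.48 (-0.90 to -0.06). Antioxidant genes under NRF2 had a median of -0.04 and 0 small p-values.

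For implantation, 14 of 26 hatching and implantation genes were higher in HC2, with a median of 0.0015. Itgb3, the integrin beta chain of the attaching blastocyst, read 0.17, -0.79, -1.26 and -0.15 in HC2 and -0.55, -1.30, -2.03 and -1.74 in HC6. The HC2 pools were mostly above the HC6 pools but HC6 replicate 1 lay among them, and the difference was 0.90 (0.11 to 1.68). Junction and pump genes had a median of -0.03, with Ocln, a tight junction protein, at 0.29 (-0.01 to 0.59). In the Hippo list, whose kinases part trophectoderm from inner cell mass, Vgll4 was without overlap at 0.22 (-0.06 to 0.49), and Wwtr1, the cofactor TAZ, differed by -0.26 (-0.72 to 0.20).

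**Figure D5:**
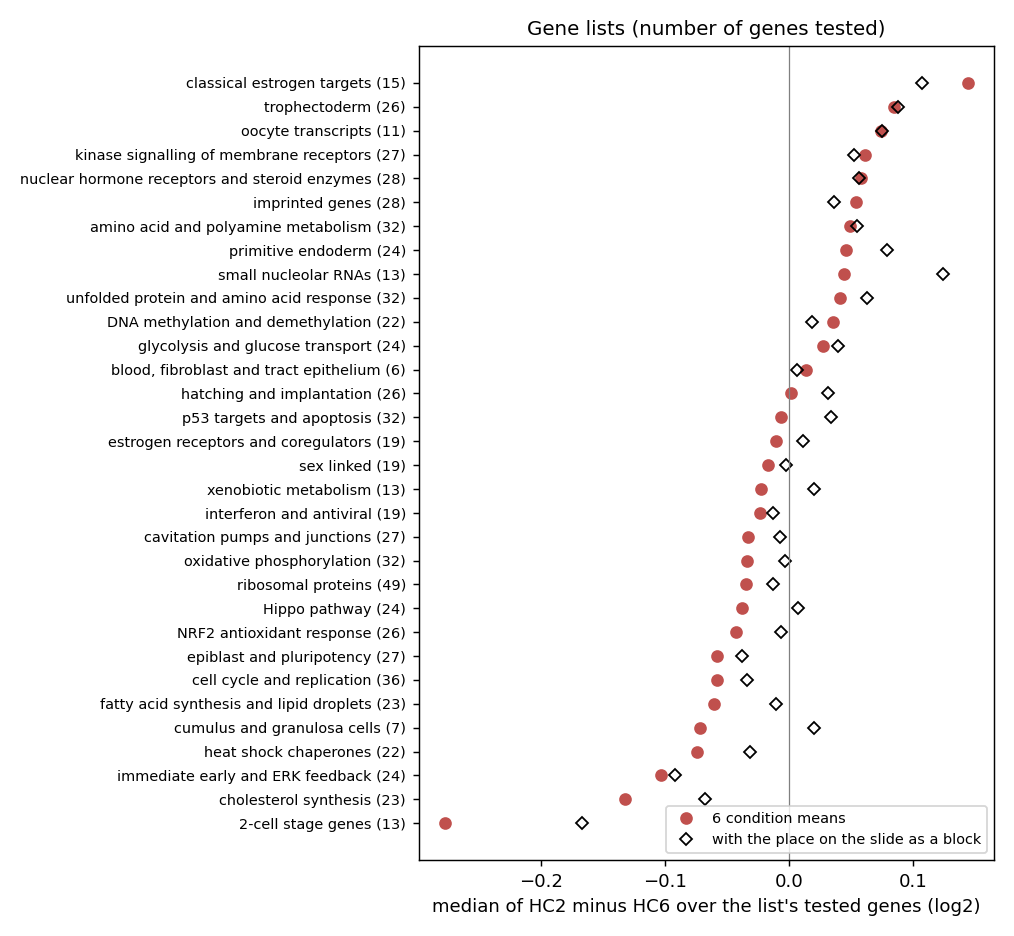
Median of the HC2 minus HC6 differences (log2) over the tested genes of each of 32 lists, with the number of genes tested, from the model of 6 condition means (filled) and with the place at row 2, columns 2 to 4, as a block (open). Medians run from -0.28 to 0.14, and the block moves the cholesterol list from -0.13 to -0.07 and the heat shock list from -0.07 to -0.03.

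For lists of transcripts of other stages and cells, the mean deviations of the HC2 and HC6 pools were intermixed. The 13 tested genes of the 2-cell stage, which includes the transient program of Zscan4, had the lowest median, -0.28, and the widest spread of values. Only 2 of the 13 were well above background in all 8 pools, so many of these values lie near background. The mean deviation over the 13 genes was 1.87, 2.01, -0.38 and 0.82 in HC2 and -0.21, -0.35, 3.85 and 1.58 in HC6. HC6 replicate 3 was the highest of all 24 pools, and without it the list median was 0.70. Sp110, a nuclear body protein in that list, is the gene at the list's median of -0.28. It differed by -0.28 (-0.66 to 0.11), by 0.03518 with the mean of its kept probes, and, between row 2, columns 2 to 4, and the other places, by -0.44. Zfp352, a retrogene of the early embryo, differed by 0.17 (-0.36 to 0.69).

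Cumulus and granulosa markers, which would show cells left on the embryo, had 7 tested genes of 20 listed, 3 higher in HC2, with scores of -0.31 to 0.19 in HC2 and -0.34 to 0.67 in HC6, where 0.67 belonged to replicate 3 and was the highest of the 24 pools. Among the untested members, below the background filter, were Fshr, Lhcgr, Cyp19a1 and Star, genes of granulosa cells. Amhr2, the receptor of anti-Mullerian hormone, and Foxl2, a transcription factor of granulosa cells, were well above background on all 24 arrays. Amhr2 had means of -0.57 in HC2 and -0.41 in HC6, and Foxl2 had means of 4.76 and 4.48. Foxl2 was 0.91 higher at row 2, columns 2 to 4, and Nr5a2 is also a gene of the embryo itself. Blood, fibroblast and tract epithelium markers had 6 tested genes of 15 listed, with scores of -0.36 to 0.15 in HC2 and -0.37 to 0.27 in HC6. The part of these cells in the values of HC6 replicate 3 was not tested. Oocyte transcripts had a median of 0.07, with 7 of 11 higher.

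Sex-linked transcripts, which depend on the embryos in a pool, did not part the conditions. Xist, the RNA of the inactive X chromosome, was well above background in all 8 pools and differed by -0.34 (-1.25 to 0.56). The Y-linked Eif2s3y differed by 0.29 (-0.45 to 1.04), Ddx3y by 0.47 (-0.75 to 1.68), Uty by 0.34 (-0.78 to 1.46) and Kdm5d by -0.04 (-0.79 to 0.72). In each the pools of HC2 and HC6 were intermixed.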

How the data were processed

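The deposited scanner files give spot intensity (linear). Per their headers they come from Agilent Feature Extraction, version 10.10.1.1, which subtracted background and did not normalize between arrays. Deposited flags (other columns) tell whether a spot was detected, saturated or an outlier. A deposited table of the authors' log2 values (27101 probes) served as an alternative; each column matched its own array best, and its exact normalization is not known here. The submitters' processing notes also name limma, without a version.

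Control spots and outlier spots were left out, log2 processed intensity was averaged per probe, and each array's 75th percentile subtracted. Kept were probes detected above background by the scanner's flag on 4 or more of the 24 arrays, with 2 or more values in each condition (27144 of 56605), and the brightest kept probe stood for a gene; 12867 probes kept the file's name. All 24 arrays were fitted with 6 condition means in limma 3.58.1 (R 4.3.3), eBayes, Benjamini-Hochberg at 0.05; the fit was tested on simulated data. Intervals are 95%. An interval or "at least" fold covers these arrays only, whose number limits the precision. Files were read with data.table (version 1.17.8) and Python 3.11.15, and figures drawn with matplotlib 3.10.9.

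Besides the genes of smallest p (12 in each direction) and largest difference (5 in each direction), the 3 smallest-p members of each list and fixed marker genes could be named, leaving out predicted and multigene names. The pools, lists and rules were chosen with earlier results of these data known. Other kept probes were looked up for the 32 genes named by smallest p or largest difference. Of these, 7 had another kept probe, and 4 of the 7 had the same sign in it. Genes named by the other rules were not part of this count. Some of them turned sign with the mean of their kept probes, as given below. Alternatives were normalization, background correction, the filter, the probe rule, the arrays fitted, weights, blocks and leaving out pools.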

Additional observations from a re-analysis of the deposited data

Results flagged for a closer look

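In 11 of 275 groups of 4 pools tested, 1 pool stood far from the other 3 by Dixon's test, and chance alone gives such a gap in about 1 group in 20. In HC6, replicate 1 was the pool that stood apart for Cd6 (-2.695 against -3.711 for the next pool), Tapt1 (-0.2252 against -2.223), Phtf1os (1.518 against -2.203) and Sp110 (7.491 against 8.026). It is the only HC6 array at row 2, columns 2 to 4. Of these genes only Sp110 was called between these places and the others (limma adjusted p 1.16e-05). For Cd6, Tapt1 and Phtf1os the limma adjusted p was 0.101, 0.325 and 0.277. The split of places was chosen from these same data, so these p-values are not independent tests of place. In HC2, replicate 2 stood apart for Nat8f1 (-1.352), Sms (4.35), Krt8 (8.088) and Kdm5d (-1.648), replicate 1 for Dsc2 (-3.239) and Nrip1 (-0.1238), and replicate 4 for Adcy9 (0.8843). All values are log2 intensity minus the array's 75th percentile.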

How the results depend on the processing

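Under the 25 alternatives, genes were called in 2: the row as a block gave 1 call, Snora78 (1.203, adjusted p 0.03417), and leaving out single pools gave 0 to 1, the call being the predicted gene Gm30906 without HC2 replicate 1 (adjusted p 0.03916). Features at an unadjusted p under 0.05 numbered 1039 of 37005 with no background filter, 921 with array weights and 378 to 1338 when single pools were left out, the highest without HC6 replicate 1. Features without overlap numbered 417 with no background filter and 483 to 1566 when single pools were left out, the highest again without HC6 replicate 1; fewer pools make overlap rarer. The replicate numbers did not pair the pools (same-number correlations of deviations -0.302, -0.116, -0.0532 and 0.21), and a replicate block gave 0 calls and 538 features at an unadjusted p under 0.05. Scan time was that of the slide, so a block for it was not run apart from the slide.

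Of 138 named genes, 123 kept the sign of their difference under all alternatives run. Pou5f1 turned to 0.01295 with quantile normalization, 0.004736 with normexp, 0.006867 with the percentile of detected probes, 0.00248 in the authors' table, 0.03282 with the slide block and 0.01396 with slide and row. Kdm5d turned to 0.1234 with the row block, 0.1492 with slide and row, 0.1282 with the place block and 0.1542 with place and slide. Cdx2 turned to -0.03802 with array weights and -0.01913 with the place block, and Krt8 to -0.008414 with the place block. With the mean of a gene's probes, Dmxl1 turned to 0.3127, Pex3 to 0.02346, Sp110 to 0.03518, Smug1 to 0.04103, Sod1 to 0.1579, Nrip1 to -0.0061, Spry2 to 0.04418, Rps20 to 0.03751 and Krt8 to -0.009256. When single pools were left out, Pou5f1 ran from -0.07776 to 0.05605, Nanog from -0.2715 to 0.0008024, Cdx2 from -0.05137 to 0.1806, Gata3 from -0.1841 to 0.01905, Krt8 from -0.03469 to 0.07731, Kdm5d from -0.4005 to 0.1404 and Zfp352 from -0.05216 to 0.3264. Normexp with an offset of 50 and the authors' table gave smaller sizes for dim probes: Snora78 0.5818 and 0.7047, Ring1 0.2268 and 0.3694 and Rara 0.2926 and 0.3667. The cause was not tested. Signals near background limit what can be said of these genes.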
